A study of Rattus norvegicus with 9 samples.

Results

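The 34 genes described here carry fatty acids into the heart muscle cell, activate them, pass them through the mitochondrial membrane and oxidise them, or control that pathway. They were taken by gene symbol from the 14636 genes of the deposited expression table, each symbol matched 1 row, and 33 of the 34 were expressed highly enough to be tested. RNA was sequenced from heart muscle cells isolated from Sprague Dawley rats aged 2 days, enriched on a Percoll gradient and grown in medium with 15% serum. There were 3 groups of 3 libraries. One group received siRNAs against both Llgl1 and Llgl2 (Llgl1/2 siRNA), which encode basolateral cell polarity proteins. Another received siRNAs against Yap, the coactivator restrained by the Hippo kinase pathway, and the last received universal negative control siRNA. Each target was hit with 2 siRNAs at 25 nM each, added 16 h after plating, and RNA was collected 48 h later, so every group had been transfected. More siRNA in total may have gone into the Llgl1/2 group, and load and target cannot be told apart. The labels name no separate cultures or litters behind the replicates, so all p-values measure the spread between these libraries only, which may be technical.

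Fatty acids are the main fuel of the adult heart, and the mammalian heart moves from glucose and lactate towards fatty acids after birth. A long-chain fatty acid is released from lipoproteins by lipoprotein lipase, enters the cell through CD36 and related transporters, and is bound by a fatty acid binding protein. It is then joined to coenzyme A, carried into the mitochondrion on carnitine, and shortened step by step in the beta-oxidation spiral, whose electrons pass through the electron transfer flavoprotein to the respiratory chain. Many of these genes are known targets of the nuclear receptor PPAR-alpha and its coactivator PGC-1alpha.

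Expression is given as FPKM, which is scaled to gene length and library size, so levels of different genes can be set side by side. The sums of FPKM per library were 572884 to 620119, with 12703 to 12831 genes above 0. Read totals are unknown. Relative depth was estimated from the most frequent ratio of low values in Llgl1/2 library 1 to those in each library. Genes with values between 0.15 and 2 FPKM in both were used, and the estimates were 0.99 to 1.11. The siRNAs lowered their targets: Llgl1 had 4.72 ± 0.0608 FPKM after Llgl1/2 siRNA against 12.1 ± 0.225 in controls, Llgl2 had 7.15 ± 0.576 against 13.6 ± 1.46, and Yap1 had 5.44 ± 0.879 after Yap siRNA against 59.7 ± 4.03 (SD, n = 3 each). Yap siRNA also lowered Llgl1, to 8.84 FPKM (log2 change -0.43 ± 0.11 (SE), limma, adjusted p = 0.0064). Llgl2 likewise fell after Yap siRNA, to 9.60 FPKM (-0.48 ± 0.13, limma, adjusted p = 0.0086). Yap1 was at -0.19 ± 0.11 after Llgl1/2 siRNA (limma, adjusted p = 0.18). Cardiomyocyte markers dominated. Their 13 genes summed to 42600 to 48200 FPKM after Llgl1/2 siRNA, 43800 to 46800 after Yap siRNA and 37500 to 41800 in controls, so both knockdowns lay above all controls. Markers of other cells were also present. The 12 endothelial markers summed to 286 to 302 FPKM after Llgl1/2 siRNA, 411 to 483 after Yap siRNA and 572 to 678 in controls. The 10 smooth muscle and pericyte markers summed to 1630 to 2000 FPKM after Llgl1/2 siRNA, 724 to 831 after Yap siRNA and 3020 to 3130 in controls, and the 10 fibroblast markers to 313 to 399, 389 to 482 and 342 to 497. The 12 leukocyte markers summed to 154 to 211, 203 to 269 and 194 to 262 FPKM in the same order of groups. Sums are weighted to the most abundant genes, and single smooth muscle and pericyte markers went both ways (limma, adjusted p below 0.05). After Llgl1/2 siRNA 3 rose and 2 fell (median log2 change 0.27), and after Yap siRNA 5 rose and 4 fell (median 0.16). For fibroblast markers these counts were 1 and 3, then 5 and 0, and for leukocyte markers 0 and 5, then 2 and 4. Over all tested genes 22.1% rose and 18.1% fell after Llgl1/2 siRNA, and 20.5% rose and 27.5% fell after Yap siRNA. The smooth muscle counts after Llgl1/2 siRNA and the leukocyte counts after Yap siRNA are near those shares. The 7 adipocyte markers summed to 5.30 FPKM at most in any library, and Plin1, Lep and Ucp1 were listed at 0 throughout.

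After Llgl1/2 siRNA, most fatty acid genes rose modestly, led by Cpt2, Cd36, Cpt1b, Acot2 and Fabp3, while the lipase inhibitor gene Angptl4 fell to a mean of 0.20 times its control level. After Yap siRNA the steepest rises were in Acsl1, Hadh and Etfdh, and Angptl4 again fell. In limma's test, 23 of the 33 tested members rose and 2 fell after Llgl1/2 siRNA at an adjusted p below 0.05, where 22.1% of all tested genes rose, 18.1% fell and 40.2% passed in either direction. After Yap siRNA 21 rose and 2 fell, where 20.5% of all tested genes rose, 27.5% fell and 48.0% passed in either direction. The Llgl1/2 libraries all lay above the controls for 23 members and all below for 2, as for 30.1% and 24.0% of all tested genes, and the Yap libraries for 23 and 3, as for 23.3% and 31.6%. The median log2 change of the members was 0.38 after Llgl1/2 siRNA and 0.41 after Yap siRNA, beside 0.03 and -0.06 over all 10789 tested genes. Both comparisons use the same 3 control libraries. The members were chosen with earlier results of these data known, so their counts beside those of all genes are a description and no independent test. All changes are on the log2(FPKM + 1) scale.

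**Figure D1:**
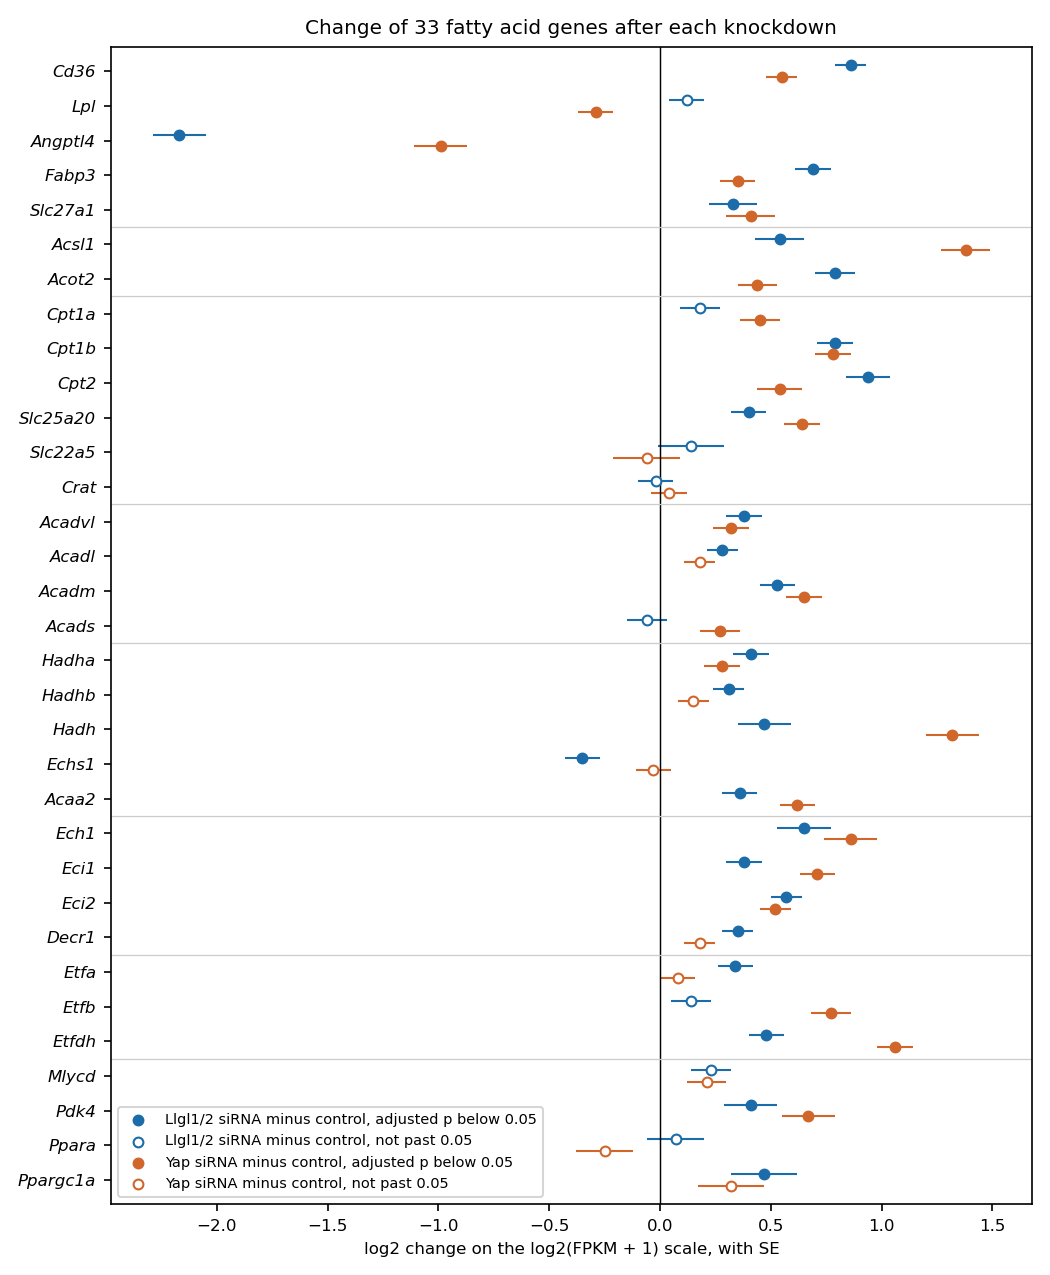
Log2 change (x axis, log2(FPKM + 1) scale, bars are standard errors) of the 33 tested genes after Llgl1/2 siRNA (blue) and after Yap siRNA (orange), each minus control siRNA, with filled points past an adjusted p of 0.05. Most points lie between 0 and 1, Angptl4 lies far to the left at -2.17 and -0.99, and Acsl1, Hadh and Etfdh lie above 1 after Yap siRNA alone.

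Levels in controls ran over a wide range. Fabp3, the heart-type fatty acid binding protein gene, was the most abundant at 1220 ± 128 FPKM, and Acadl, a long-chain acyl-CoA dehydrogenase gene, followed at 335 ± 9.67 (SD, n = 3). The lowest tested members were Ppara at 4.88 ± 0.651 FPKM and Slc22a5, the plasma membrane carnitine transporter gene, at 3.17 ± 0.330. Ucp3, an uncoupling protein gene known from skeletal muscle, was listed at 0 in 7 of the 9 libraries and at 0.05 FPKM in Llgl1/2 library 1 and Yap library 3, and was not tested. Every tested member had at least 2.53 FPKM in every library.

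Uptake and delivery genes held the largest single change. Angptl4 encodes a secreted inhibitor of lipoprotein lipase, and its level was 7.70, 7.84 and 7.79 FPKM after Llgl1/2 siRNA, 21.9, 18.3 and 17.1 after Yap siRNA, and 43.3, 41.9 and 31.7 in controls. The 3 groups did not overlap, and the Llgl1/2 libraries lay close together. It fell by 2.17 ± 0.12 (SE) on the log2 scale after Llgl1/2 siRNA (limma, adjusted p = 5.9e-08), a ratio of means of 0.20, and by 0.99 ± 0.12 after Yap siRNA (adjusted p = 1.4e-05), a ratio of 0.49. The 250 bases before its start are shown because this gene changed most. They are read on the minus strand of chr7:15258682-15258931 (RefSeq, GRCr8), and the capitals mark the letters TATAAAA, whose first base lies at -39 from the start:
Angptl4: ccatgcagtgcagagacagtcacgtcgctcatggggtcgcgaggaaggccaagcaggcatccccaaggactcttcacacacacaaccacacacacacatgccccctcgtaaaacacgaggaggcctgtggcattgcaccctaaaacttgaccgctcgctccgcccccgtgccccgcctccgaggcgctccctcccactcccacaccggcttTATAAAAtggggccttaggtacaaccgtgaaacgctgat
Searched on both strands, TATAAAA occurred in 5.38% of 33465 such windows of the same length and in 2 of the 28 members that the table held, Angptl4 and Echs1.

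The receptor and the intracellular carrier rose. Cd36 encodes the main fatty acid translocase of the heart, and had 128, 139 and 135 FPKM after Llgl1/2 siRNA, 104, 110.4 and 109.5 after Yap siRNA, and 69.5, 72.2 and 78.4 in controls. None of the groups overlapped, with Llgl1/2 libraries highest. Its log2 change was 0.86 ± 0.07 (limma, adjusted p = 1.2e-06) after Llgl1/2 siRNA and 0.55 ± 0.07 (adjusted p = 2.3e-05) after Yap siRNA. Fabp3 stood at 1998, 1900 and 1988 FPKM after Llgl1/2 siRNA, at 1459, 1653 and 1535 after Yap siRNA, and at 1177, 1120 and 1364 in controls, in the same order of groups and again without overlap. It rose by 0.69 ± 0.08 (limma, adjusted p = 3.4e-05) and by 0.35 ± 0.08 (adjusted p = 0.0040), and the second call was lost under quantile normalization (adjusted p = 0.056).

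Of the other uptake members, Slc27a1, which encodes a fatty acid transport protein with acyl-CoA synthetase activity, rose by 0.33 ± 0.11 after Llgl1/2 siRNA (limma, adjusted p = 0.028) and by 0.41 ± 0.11 after Yap siRNA (adjusted p = 0.0070). The first of these calls was lost without any 1 of Llgl1/2 library 1 (adjusted p = 0.058), 2 (0.068) or 3 (0.074) or control library 1 (0.091) or 2 (0.058). Lpl, the lipoprotein lipase gene itself, fell by 0.29 ± 0.08 after Yap siRNA (limma, adjusted p = 0.010), with 35.7 to 40.7 FPKM against 45.3 to 48.0 in controls, and was at 0.12 ± 0.08 after Llgl1/2 siRNA (adjusted p = 0.25). CD36, lipoprotein lipase and ANGPTL4 are also made by endothelial and other non-muscle cells. Of 12 endothelial markers, 10 fell and none rose after Llgl1/2 siRNA (median log2 change -1.04). After Yap siRNA 6 fell and 1 rose (median -0.31). The shares of all tested genes that fell were 18.1% and 27.5%, and those that rose 22.1% and 20.5%. The part of endothelial cells in the changes of Cd36, Lpl and Angptl4 was not tested. In such mixed cultures fewer cells of a type and less RNA per cell cannot be told apart.

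Activation of fatty acids separated the knockdowns. Acsl1 encodes the main long-chain acyl-CoA synthetase of the heart, and reached 46.7, 57.6 and 64.1 FPKM after Llgl1/2 siRNA, 89.8, 102 and 109.8 after Yap siRNA, and 38.1, 34.8 and 41.2 in controls. The Yap siRNA libraries were all above the Llgl1/2 libraries, which were all above the controls. It rose by 1.38 ± 0.11 after Yap siRNA (limma, adjusted p = 4.5e-07), a 2.64-fold ratio of means, and by 0.54 ± 0.11 after Llgl1/2 siRNA (adjusted p = 0.0016). Acot2, a mitochondrial thioesterase gene that works in the reverse direction by releasing the free acid from acyl-CoA, ran the other way: 17.2, 17.8 and 17.2 FPKM after Llgl1/2 siRNA, 13.4, 11.9 and 15.1 after Yap siRNA, and 9.54, 9.44 and 9.90 in controls. Here the Llgl1/2 libraries were highest, with no overlap between groups, and the rises were 0.79 ± 0.09 (limma, adjusted p = 2.6e-05) and 0.44 ± 0.09 (adjusted p = 0.0017). Acot2 has a close paralog, Acot1, listed at 0.44 FPKM or less in these libraries, and reads could be split between the pair.

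Of the 6 carnitine shuttle genes, 3 rose after Llgl1/2 siRNA and 4 after Yap siRNA, where 22.1% and 20.5% of all tested genes rose, and none fell. Cpt1b, the muscle-type carnitine palmitoyltransferase of the outer membrane, had 82.3, 85.6 and 88.9 FPKM after Llgl1/2 siRNA, 84.4, 75.8 and 94.7 after Yap siRNA, and 48.6, 47.0 and 51.5 in controls. Both knockdowns lay above all controls and overlapped each other, with rises of 0.79 ± 0.08 (limma, adjusted p = 8.6e-06) and 0.78 ± 0.08 (adjusted p = 5.4e-06). Cpt1a, the liver-type isoenzyme of the same step, which prevails in the fetal heart, had 24.7, 29.2 and 28.9 FPKM after Llgl1/2 siRNA, 31.8, 32.6 and 36.0 after Yap siRNA, and 23.2, 22.5 and 26.9 in controls. Only its Yap siRNA libraries stood clear of the controls: it rose by 0.45 ± 0.09 (limma, adjusted p = 0.0012) there and was at 0.18 ± 0.09 after Llgl1/2 siRNA (adjusted p = 0.13).

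The muscle-type transcript therefore outweighed the liver-type transcript in every library. The ratio of Cpt1b to Cpt1a was 3.33, 2.93 and 3.08 after Llgl1/2 siRNA, 2.66, 2.32 and 2.63 after Yap siRNA, and 2.09, 2.09 and 1.92 in controls. The 3 groups did not overlap. In exact two-sided permutation tests each pair of groups gave p = 0.10, the smallest value that 3 libraries against 3 allow, with log2 differences of 0.61 for Llgl1/2 siRNA minus control, 0.32 for Yap siRNA minus control and 0.30 for Llgl1/2 minus Yap siRNA. These were 3 comparisons. Adjustment over them after Benjamini and Hochberg leaves 3 equal p-values at 0.10, while a stricter method would raise them.

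Further along the shuttle, Cpt2, the inner membrane transferase that hands the acyl group back to coenzyme A, had 49.3, 54.3 and 55.6 FPKM after Llgl1/2 siRNA, 38.2, 35.0 and 47.6 after Yap siRNA, and 27.7, 25.2 and 28.9 in controls. Both knockdowns lay above all controls. It rose by 0.94 ± 0.10 after Llgl1/2 siRNA (limma, adjusted p = 1.4e-05), a 1.95-fold ratio of means, and by 0.54 ± 0.10 after Yap siRNA (adjusted p = 0.00076). Slc25a20, the carnitine-acylcarnitine carrier of the inner membrane, had 59.2, 54.1 and 58.5 FPKM after Llgl1/2 siRNA, 63.7, 67.0 and 72.1 after Yap siRNA, and 45.1, 39.8 and 44.3 in controls. Its order was that of Cpt1a, with the Yap siRNA libraries highest and no overlap, and its rises were 0.40 ± 0.08 (limma, adjusted p = 0.00099) and 0.64 ± 0.08 (adjusted p = 1.6e-05). Crat, the short-chain carnitine acetyltransferase gene, stayed at 48.1 to 55.9 FPKM across all libraries, and Slc22a5 at 2.53 to 4.29. Neither passed the test in any of the 3 comparisons.

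**Figure D2:**
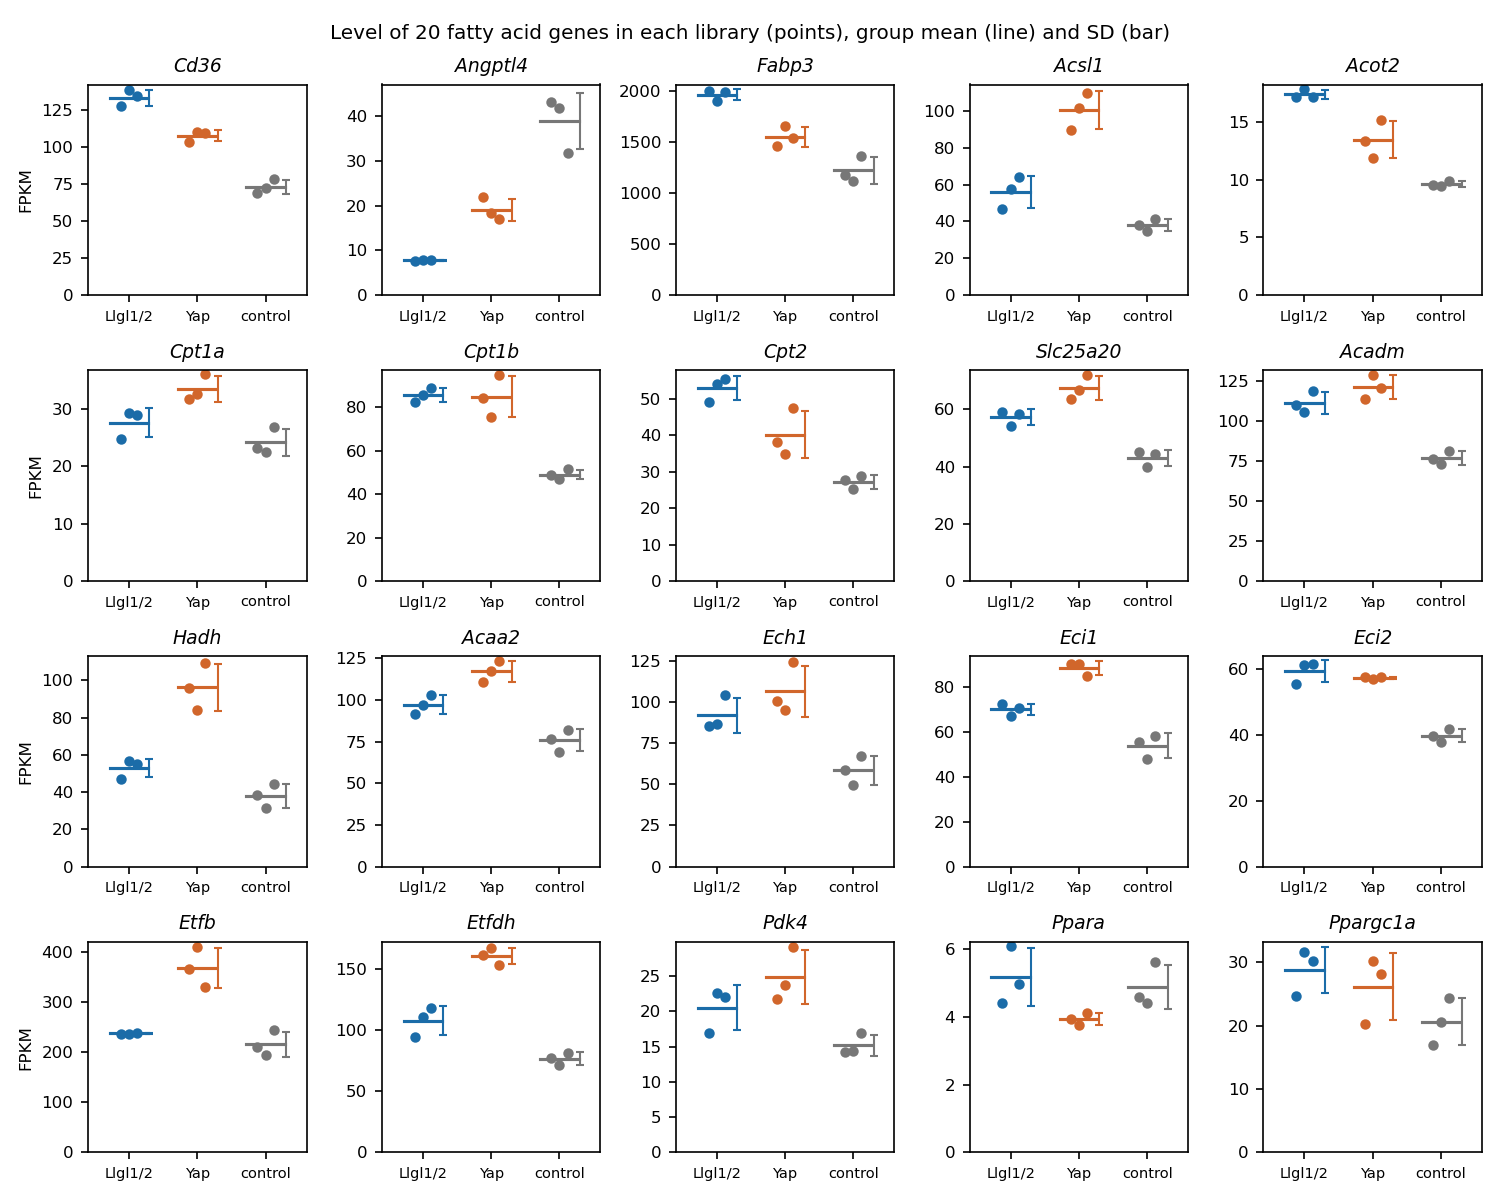
FPKM (y axis, from 0) of the 20 genes described library by library, in the Llgl1/2 siRNA (blue), Yap siRNA (orange) and control siRNA (grey) libraries, with group means as lines and SD as bars, n = 3. Llgl1/2 libraries are highest for Cd36, Fabp3, Acot2 and Cpt2, Yap libraries are highest for Acsl1, Hadh, Etfb and Etfdh, and controls are highest for Angptl4.

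The 4 acyl-CoA dehydrogenases open the spiral, each for its own chain length. Acadm, the medium-chain enzyme, had 109.8, 105 and 119 FPKM after Llgl1/2 siRNA, 114, 129 and 120.3 after Yap siRNA, and 76.0, 72.7 and 81.2 in controls. Both knockdowns were above all controls, and it rose by 0.53 ± 0.08 (limma, adjusted p = 0.00011) and 0.65 ± 0.08 (adjusted p = 1.2e-05). Acadvl, the very-long-chain enzyme, rose by 0.38 ± 0.08 after Llgl1/2 siRNA (adjusted p = 0.0022) and 0.32 ± 0.08 after Yap siRNA (limma, adjusted p = 0.0054). Acadl rose by 0.28 ± 0.07 after Llgl1/2 siRNA (limma, adjusted p = 0.0088), a call lost without Llgl1/2 library 3 (0.24, adjusted p = 0.05 after rounding), and was at 0.18 ± 0.07 after Yap siRNA (adjusted p = 0.054). Acads, the short-chain enzyme, was at -0.06 ± 0.09 after Llgl1/2 siRNA (limma, adjusted p = 0.59) and rose by 0.27 ± 0.09 after Yap siRNA (adjusted p = 0.018). That rise did not pass without control library 1 (adjusted p = 0.066), control library 2 (0.092) or Yap library 3 (0.065).

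Later steps of the spiral moved unequally. Hadh encodes the short- and medium-chain 3-hydroxyacyl-CoA dehydrogenase, and had 47.2, 56.5 and 55.1 FPKM after Llgl1/2 siRNA, 95.7, 83.9 and 109.2 after Yap siRNA, and 38.5, 31.4 and 44.4 in controls. No groups overlapped and the Yap siRNA libraries stood far above the rest. Its rise of 1.32 ± 0.12 after Yap siRNA was a 2.52-fold ratio of means (limma, adjusted p = 2.1e-06), against 0.47 ± 0.12 after Llgl1/2 siRNA (adjusted p = 0.0077). Acaa2, the mitochondrial thiolase gene of the last step, had 91.5, 96.97 and 103 FPKM after Llgl1/2 siRNA, 110.5, 117 and 123 after Yap siRNA, and 76.5, 68.7 and 82.1 in controls. It followed the same order, with rises of 0.36 ± 0.08 (limma, adjusted p = 0.0030) and 0.62 ± 0.08 (adjusted p = 2.8e-05). Echs1, the short-chain enoyl-CoA hydratase gene, was the only enzyme gene of the spiral to fall: it had 32.6 to 35.4 FPKM after Llgl1/2 siRNA, 37.1 to 45.7 after Yap siRNA and 42.4 to 44.5 in controls. It fell by 0.35 ± 0.08 after Llgl1/2 siRNA (limma, adjusted p = 0.0047) and was at -0.03 ± 0.08 after Yap siRNA (adjusted p = 0.80).

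Hadha and Hadhb encode the alpha and beta subunits of the mitochondrial trifunctional protein, which carries out 3 steps on long chains, and their levels stayed close. Hadha had 221 to 239 FPKM after Llgl1/2 siRNA, 200.2 to 220.03 after Yap siRNA and 163 to 191 in controls, and Hadhb had 218 to 229, 188 to 212 and 171 to 192. Both rose after Llgl1/2 siRNA, by 0.41 ± 0.08 (limma, adjusted p = 0.00080) and 0.31 ± 0.07 (adjusted p = 0.0040). After Yap siRNA Hadha rose by 0.28 ± 0.08 (limma, adjusted p = 0.0075) and Hadhb was at 0.15 ± 0.07 (adjusted p = 0.097). The pair lies head to head on chromosome 6 with 301 bases between the starts. The 250 bases before the Hadha start, on the plus strand of chr6:31907551-31907800 (RefSeq, GRCr8), are shown because the subunits share them: the 200 capital bases also lie within the 250 bases before the Hadhb start on the other strand.
Hadha: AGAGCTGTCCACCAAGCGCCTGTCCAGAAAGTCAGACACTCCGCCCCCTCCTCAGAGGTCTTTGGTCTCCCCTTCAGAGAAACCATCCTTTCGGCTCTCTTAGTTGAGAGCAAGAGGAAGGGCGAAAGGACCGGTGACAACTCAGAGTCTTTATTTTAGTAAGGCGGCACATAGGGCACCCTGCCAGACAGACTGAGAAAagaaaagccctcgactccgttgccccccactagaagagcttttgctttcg

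The 4 auxiliary enzymes that prepare unsaturated fatty acids for the spiral all rose after Llgl1/2 siRNA, and 3 of them after Yap siRNA. Of all tested genes 22.1% and 20.5% rose. Ech1, a dienoyl-CoA isomerase gene, had 85.1, 86.6 and 104 FPKM after Llgl1/2 siRNA, 100.2, 94.9 and 124 after Yap siRNA, and 58.4, 49.7 and 66.8 in controls, with rises of 0.65 ± 0.12 (limma, adjusted p = 0.00087) and 0.86 ± 0.12 (adjusted p = 7.0e-05). Eci1, an enoyl-CoA isomerase gene, had 72.3, 67.3 and 70.8 FPKM after Llgl1/2 siRNA, 90.4, 90.3 and 84.9 after Yap siRNA, and 55.7, 47.8 and 58.4 in controls. Both knockdowns were above all controls for both genes, and for Eci1 also clear of each other, with rises of 0.38 ± 0.08 (limma, adjusted p = 0.0020) and 0.71 ± 0.08 (adjusted p = 8.9e-06). Eci2, a second enoyl-CoA isomerase gene, had 55.6, 61.3 and 61.5 FPKM after Llgl1/2 siRNA, 57.6, 57.1 and 57.6 after Yap siRNA, and 39.7, 37.9 and 41.9 in controls. It rose by 0.57 ± 0.07 (limma, adjusted p = 3.8e-05) and 0.52 ± 0.07 (adjusted p = 4.6e-05), and the knockdowns overlapped. Decr1, the 2,4-dienoyl-CoA reductase gene, rose by 0.35 ± 0.07 after Llgl1/2 siRNA (limma, adjusted p = 0.0020) and was at 0.18 ± 0.07 after Yap siRNA (adjusted p = 0.053).

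Electron transfer from the dehydrogenases showed a split between partner subunits. Etfb, the beta subunit of the electron transfer flavoprotein, had 237, 237 and 239 FPKM after Llgl1/2 siRNA, 367, 409.9 and 329.7 after Yap siRNA, and 211, 195 and 244 in controls. Its Yap siRNA libraries stood above all others, while the Llgl1/2 libraries lay within the control range. It rose by 0.77 ± 0.09 after Yap siRNA (limma, adjusted p = 1.7e-05) and was at 0.14 ± 0.09 after Llgl1/2 siRNA (adjusted p = 0.24). Etfa, the alpha subunit, rose by 0.34 ± 0.08 after Llgl1/2 siRNA (limma, adjusted p = 0.0028), with 198 to 207 FPKM against 157 to 162 in controls, and was at 0.08 ± 0.08 after Yap siRNA (adjusted p = 0.39), with 155 to 189. Etfdh, which passes the electrons on to ubiquinone, had 94.6, 110.5 and 118 FPKM after Llgl1/2 siRNA, 162, 167 and 153 after Yap siRNA, and 77.3, 71.4 and 81.2 in controls. The groups did not overlap, and it rose by 0.48 ± 0.08 (limma, adjusted p = 0.00059) and 1.06 ± 0.08 (adjusted p = 4.4e-07).

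Start regions of 28 members were searched for 3 known elements. The TEAD core CATTCC, on either strand, occurred in 12.1% of the 33465 windows and in 3 of the 28 member windows, those of Cpt1a, Etfb and Slc25a20. The PPAR element, a direct repeat of AGGNCA with 1 base between, was in 0.368% of all windows and the estrogen-related receptor element TCAAGGTCA in 0.388%, and neither was in a member window. Matches and their lack describe these 250 letters only.

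Of 4 tested genes that control the pathway, 2 rose after Llgl1/2 siRNA and 1 after Yap siRNA, and none fell. Of all tested genes 22.1% and 20.5% rose, and 18.1% and 27.5% fell, so the count that rose after Yap siRNA is near that share. Ppara, the receptor gene, had 4.42, 6.10 and 4.98 FPKM after Llgl1/2 siRNA, 3.93, 3.76 and 4.12 after Yap siRNA, and 4.60, 4.41 and 5.62 in controls. The Llgl1/2 libraries overlapped the controls and the Yap libraries lay just under them, and neither comparison passed, at 0.07 ± 0.13 (limma, adjusted p = 0.71) and -0.25 ± 0.13 (adjusted p = 0.13). Ppargc1a, which encodes PGC-1alpha, had 24.7, 31.6 and 30.1 FPKM after Llgl1/2 siRNA, 20.2, 30.2 and 28.1 after Yap siRNA, and 17.0, 20.5 and 24.4 in controls. Its Llgl1/2 libraries lay narrowly above the controls, and it rose by 0.47 ± 0.15 (limma, adjusted p = 0.028). The call was lost without Llgl1/2 library 2 (adjusted p = 0.098) or 3 (0.082), without control library 1 (0.11) or 2 (0.066), and with no filter on low values (0.053). After Yap siRNA it was at 0.32 ± 0.15 with overlapping libraries (limma, adjusted p = 0.10), and it passed without control library 3 (adjusted p = 0.036) or Yap library 1 (0.010). It also passed with a block on replicate number (limma, adjusted p = 0.0073), though that number was not taken to pair these groups.

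Pdk4 encodes the kinase that switches off pyruvate dehydrogenase when fat is burned, and had 16.9, 22.6 and 22.1 FPKM after Llgl1/2 siRNA, 21.8, 23.8 and 29.1 after Yap siRNA, and 14.2, 14.4 and 16.9 in controls. All Yap libraries were above the controls, and it rose by 0.67 ± 0.12 there (limma, adjusted p = 0.00058). After Llgl1/2 siRNA the lowest library equalled the highest control, and the rise of 0.41 ± 0.12 (limma, adjusted p = 0.019) was lost without Llgl1/2 library 2 (adjusted p = 0.085) or 3 (0.077) or control library 1 (0.067) or 2 (0.069). Mlycd, whose product removes malonyl-CoA, the inhibitor of the outer carnitine transferase, was at 0.23 ± 0.09 after Llgl1/2 siRNA (limma, adjusted p = 0.061) and 0.21 ± 0.09 after Yap siRNA (adjusted p = 0.080).

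The knockdowns were also set against each other directly. Of 33 members, 6 were higher and 11 lower after Llgl1/2 siRNA than after Yap siRNA (limma, adjusted p below 0.05), where 28.0% of all tested genes were higher, 19.0% lower and 47.0% passed in either direction. The 17 members that passed of 33 are a share near that of all genes. The libraries of these groups did not overlap for 10 members that were higher and 11 that were lower, as for 32.9% and 21.4% of all tested genes. With median-ratio scaling the counts over all genes were 2355 higher and 2572 lower in place of 3024 and 2046, and the members' were 5 and 12. Genes higher with Llgl1/2 siRNA were Cd36 (0.31 ± 0.07, adjusted p = 0.0027), Lpl (0.41 ± 0.08, adjusted p = 0.0011), Fabp3 (0.34 ± 0.08, adjusted p = 0.0046), Acot2 (0.35 ± 0.09, adjusted p = 0.0074), Cpt2 (0.40 ± 0.10, adjusted p = 0.0059) and Etfa (0.26 ± 0.08, adjusted p = 0.012). The call for Etfa was lost with median-ratio scaling (limma, adjusted p = 0.098). Among these 6, 3 belong to uptake and delivery, a list of 5 in which Angptl4 was lower and Slc27a1 did not pass.

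The 11 lower genes came from every step but control. Besides Angptl4 (-1.19 ± 0.12, limma, adjusted p = 3.7e-06), they were led by Hadh (-0.85 ± 0.12, adjusted p = 0.00010), Acsl1 (-0.84 ± 0.11, adjusted p = 4.6e-05), Etfb (-0.63 ± 0.09, adjusted p = 0.00011) and Etfdh (-0.58 ± 0.08, adjusted p = 0.00011). Acads, Eci1 and Echs1 differed by -0.34 ± 0.09, -0.33 ± 0.08 and -0.32 ± 0.08, at adjusted p-values of 0.0037 to 0.0066. Acaa2 (-0.27 ± 0.08, limma, adjusted p = 0.014), Cpt1a (-0.27 ± 0.09, adjusted p = 0.028) and Slc25a20 (-0.24 ± 0.08, adjusted p = 0.022) passed with all libraries. Acaa2 did not without Llgl1/2 library 1 (adjusted p = 0.060), nor Cpt1a without Llgl1/2 library 1 (0.12) or Yap library 3 (0.094), nor Slc25a20 without Llgl1/2 library 2 (0.097) or Yap library 3 (0.075). For Cpt1b the difference was 0.02 ± 0.08 (limma, adjusted p = 0.88) and for Eci2 0.05 ± 0.07 (adjusted p = 0.60), which does not show that the knockdowns act alike on them. The values above come from the test without pairing, and no paired test of the 2 knockdown groups alone was run. The libraries of these 2 groups were taken as paired by replicate number, but the block on that number was fitted over all 9 libraries, controls included. With it Ech1 (-0.20, limma, adjusted p = 0.020), Pdk4 (-0.27, adjusted p = 0.025) and Decr1 (0.16, adjusted p = 0.038) also passed.

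**Figure D3:**
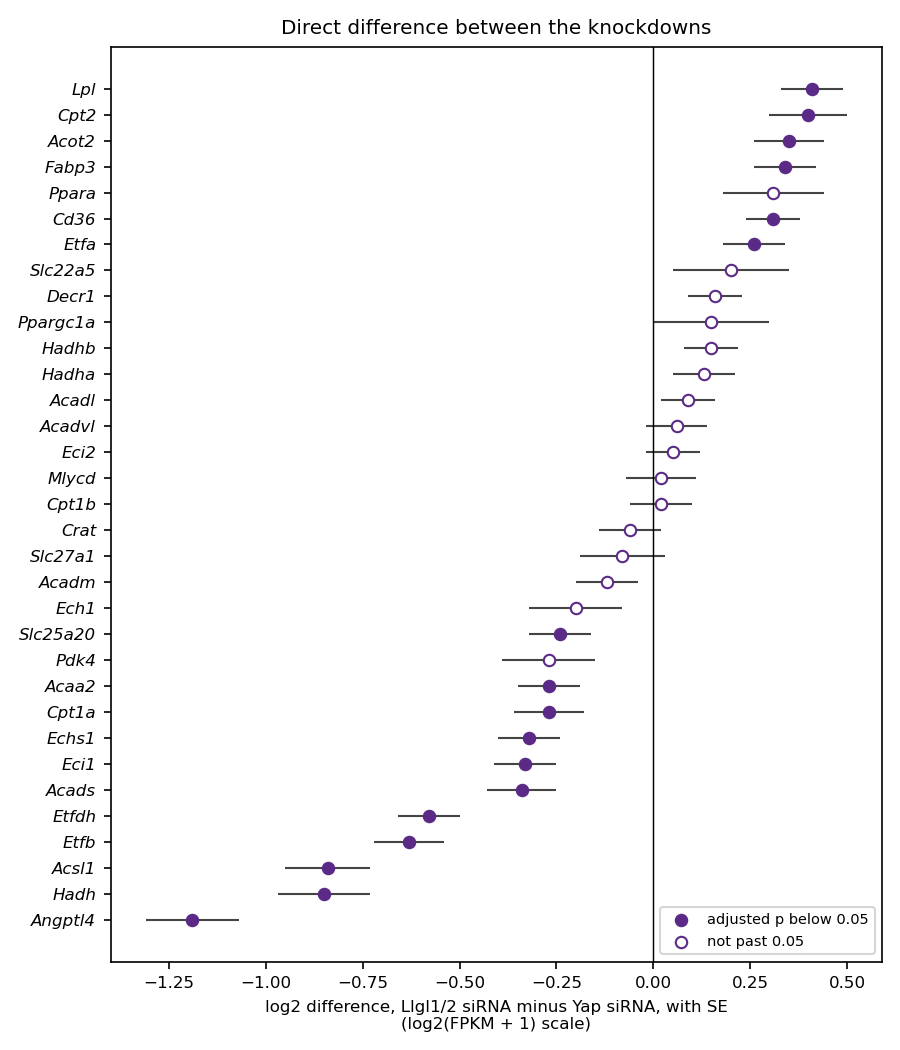
Log2 difference (x axis, log2(FPKM + 1) scale, bars are standard errors) between Llgl1/2 siRNA and Yap siRNA for the 33 tested genes, sorted by size, with filled points past an adjusted p of 0.05. Angptl4 lies lowest at -1.19, followed by Hadh and Acsl1, and Lpl, Cpt2 and Acot2 lie highest.

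The wider fatty acid pathway is given by counts, to be read beside the shares over all tested genes, 22.1% higher and 18.1% lower after Llgl1/2 siRNA and 20.5% higher and 27.5% lower after Yap siRNA. No difference between lists was tested. Of 113 further tested genes, 39 rose and 11 fell after Llgl1/2 siRNA (median log2 change 0.19), and 46 rose and 21 fell after Yap siRNA (median 0.06). Of 18 peroxisomal genes, 7 rose and 0 fell after Llgl1/2 siRNA, against 5 and 1 after Yap siRNA, where the share higher was near that of all genes. Phyh, which starts the alpha-oxidation of branched phytanic acid, had 214 ± 16.9 FPKM after Llgl1/2 siRNA, 327 ± 18.5 after Yap siRNA and 133 ± 13.0 in controls (SD, n = 3), rises of 0.68 ± 0.09 (limma, adjusted p = 4.3e-05) and 1.29 ± 0.09 (adjusted p = 7.9e-08). Of 16 other transport and activation genes, 2 rose and 3 fell after Llgl1/2 siRNA, at or under about the shares over all genes, and 6 rose and 5 fell after Yap siRNA. Acsf2, an acyl-CoA synthetase gene, rose by 1.55 ± 0.08 after Yap siRNA (limma, adjusted p = 1.1e-08) and was at 0.19 ± 0.08 after Llgl1/2 siRNA (adjusted p = 0.077). Fabp5, the epidermal-type binding protein gene, fell by 0.67 ± 0.11 after Llgl1/2 siRNA (limma, adjusted p = 0.00048) and rose by 0.47 ± 0.11 after Yap siRNA (adjusted p = 0.0041).

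Of 15 triglyceride storage and lipolysis genes, 3 rose and 1 fell after Llgl1/2 siRNA, where 22.1% of all tested genes rose and 18.1% fell. After Yap siRNA 9 rose and 3 fell, where 20.5% of all tested genes rose and 27.5% fell. Cidea, a lipid droplet protein gene, had 194 ± 9.78 FPKM after Llgl1/2 siRNA, 403 ± 23.6 after Yap siRNA and 141 ± 25.0 in controls (SD, n = 3), and Plin2, which coats lipid droplets, had 68.1 ± 1.43, 101 ± 3.93 and 67.9 ± 3.12. Abhd5, the coactivator of adipose triglyceride lipase, fell by 0.83 ± 0.11 (limma, adjusted p = 6.7e-05) and 0.59 ± 0.11 (adjusted p = 0.00070). Of 12 malonyl-CoA and AMP-activated kinase genes, 6 rose and 4 fell after Llgl1/2 siRNA, and 3 rose and 4 fell after Yap siRNA, the second pair near the shares over all genes. Fasn, the fatty acid synthase gene, fell by 0.73 ± 0.09 (limma, adjusted p = 4.4e-05) and 0.49 ± 0.09 (adjusted p = 0.00062), while Acacb, which makes malonyl-CoA at the mitochondrial surface, rose by 0.51 ± 0.12 (adjusted p = 0.0036) and 0.84 ± 0.12 (adjusted p = 6.2e-05).

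Among nuclear receptors, partners and coregulators of PPAR and the estrogen-related receptors, 7 of 20 rose and 1 fell after Llgl1/2 siRNA, and 10 rose and 2 fell after Yap siRNA. Perm1, a muscle regulator of oxidative metabolism induced by PGC-1alpha, had 20.1 ± 1.12 FPKM after Llgl1/2 siRNA, 25.8 ± 3.49 after Yap siRNA and 11.3 ± 2.14 in controls (SD, n = 3), with rises of 0.80 ± 0.12 (limma, adjusted p = 0.00021) and 1.13 ± 0.12 (adjusted p = 6.4e-06). Lpin1, a lipin gene that also acts as a coactivator, rose by 0.41 ± 0.11 (limma, adjusted p = 0.012) and 1.34 ± 0.11 (adjusted p = 7.8e-07). At the junction with glucose oxidation, 7 of 12 pyruvate dehydrogenase and carrier genes rose and 1 fell after Llgl1/2 siRNA, against 5 and 2 after Yap siRNA. Pdha1, the catalytic subunit of pyruvate dehydrogenase, fell by 0.66 ± 0.07 after Yap siRNA (limma, adjusted p = 6.9e-06) and was at 0.10 ± 0.07 after Llgl1/2 siRNA (adjusted p = 0.27). Its kinase gene Pdk2 fell by 0.44 ± 0.10 after Llgl1/2 siRNA (limma, adjusted p = 0.0028) and rose by 0.67 ± 0.10 after Yap siRNA (adjusted p = 8.5e-05), a direct difference of -1.10 ± 0.10 (adjusted p = 1.4e-06).

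Of 15 other mitochondrial acyl-CoA genes 6 rose and 1 fell after Llgl1/2 siRNA, and 7 rose and 3 fell after Yap siRNA, and of 6 ketone body genes 1 rose and none fell, and 2 rose and 1 fell. Acad9, a dehydrogenase homolog needed to assemble respiratory complex I, fell by 0.48 ± 0.07 after Llgl1/2 siRNA (limma, adjusted p = 0.00023), and the monocarboxylate transporter gene Slc16a1 rose by 0.97 ± 0.07 (adjusted p = 6.5e-07) and, after Yap siRNA, by 0.63 ± 0.07 (adjusted p = 1.1e-05). Respiratory chain and ATP synthase genes rose in 14 of 26 cases after Llgl1/2 siRNA (median 0.24) and in 9 after Yap siRNA (median 0.12), and citric acid cycle genes in 8 of 11 (median 0.24) and 5 (median 0.13). None fell but 2 cycle genes after Yap siRNA. Of 13 cardiomyocyte markers, 7 rose and 1 fell after Llgl1/2 siRNA (median 0.35), against 9 and 4 after Yap siRNA (median 0.57). The shares over all tested genes were 22.1% higher and 18.1% lower, then 20.5% and 27.5%. The part of the share of myocytes in the rises of the fatty acid genes was not tested.

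**Figure D4:**
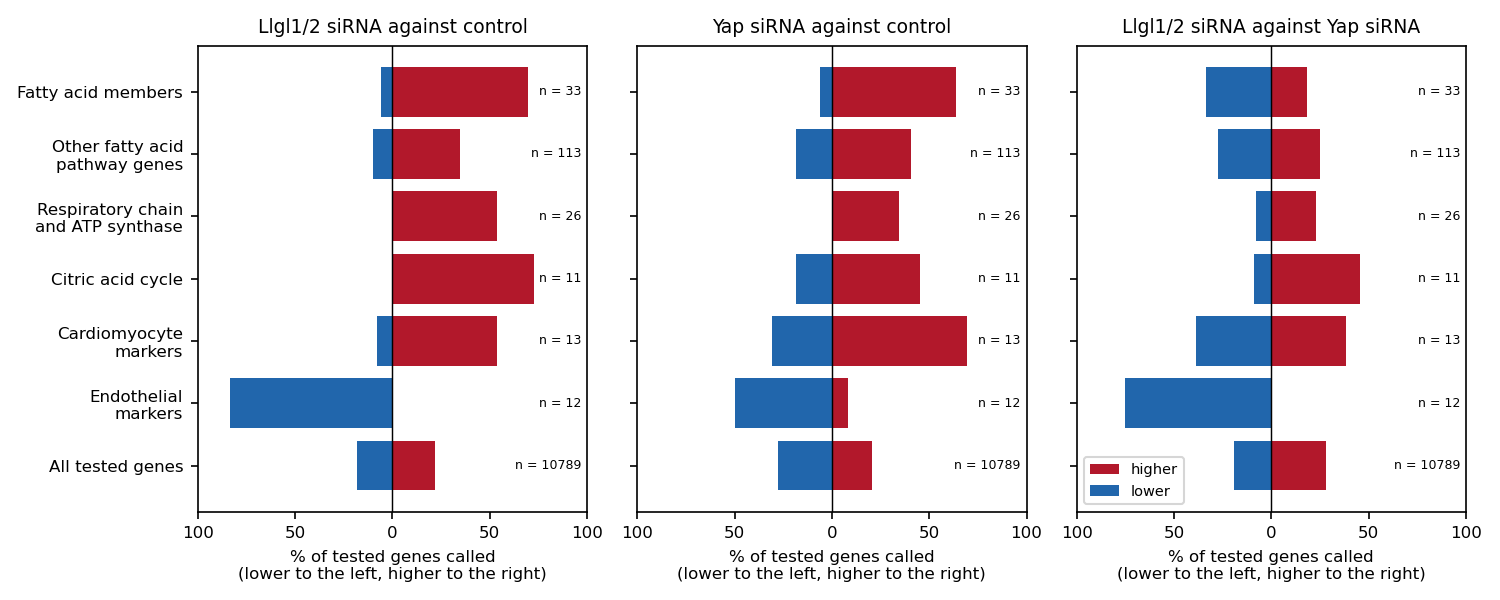
Percent of the tested genes of each list called higher (red, to the right) or lower (blue, to the left) at an adjusted p below 0.05, in the 3 comparisons, with the number of genes tested beside each bar and all 10789 tested genes at the bottom. The fatty acid members reach 23 of 33 higher after Llgl1/2 siRNA and 21 of 33 after Yap siRNA, while 10 of 12 and 6 of 12 endothelial markers are lower.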

How the data were processed

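Poly-A RNA was sequenced by a low-input BGISEQ-500 protocol, per the labels' protocols. The authors deposited FPKM per gene and library, rounded to 2 decimals. Bowtie2, HISAT and the rn6 build appear in the submitters' processing notes without a role, and the counting tool and annotation are not given in the sources used here. In the table, 1 further FPKM column equals Llgl1/2 library 2 and was not used. For 31 rows whose symbol was a date or absent, the GRCr8 gene table supplied 29 symbols by gene ID.

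The 10789 genes reaching 1 FPKM in 3 or more libraries were tested in R 4.3.3 by limma 3.58.1, applied to log2(FPKM + 1) values with a trended, robust variance, all 9 libraries in 1 fit and a mean per group. P-values were adjusted after Benjamini and Hochberg over all tested genes, threshold 0.05. The Cpt1b to Cpt1a ratio was tested by exact permutation, and the other ratios were not tested. The code was tested on simulated data. Python 3.11.15 with pandas 2.3.3 and matplotlib 3.10.9 made tables and plots. Members with a log2 change of at least 0.5 past the threshold, and Ppara, Ppargc1a, Pdk4, Cpt1a and Cpt1b, are given library by library. In the other lists, named genes are among the 2 with the smallest p per comparison. The members and lists were chosen with earlier results of these data known. Deviations from group means correlated at 0.12 to 0.24 between same-numbered Llgl1/2 and Yap libraries and at -0.14 to 0.01 between differently numbered ones. The replicate number was therefore taken to pair these, from the data and not the labels. For pairs with the controls the values were 0.01 to 0.17 and -0.18 to 0.07, which overlap. The main test used no pairing. Alternatives were another pseudocount, filter, scaling, threshold, set of libraries, and the replicate block. Depth was estimated only as a ratio, so no counting intervals are given. Strand use in counting is not given, and 12 of the 34 members overlap another annotated gene, 5 of them a protein-coding one (Fabp3, Slc27a1, Slc25a20, Ech1 and Ppara).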

Additional observations from a re-analysis of the deposited data

How the results depend on the processing

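The number of members called higher and lower after Llgl1/2 siRNA (23 and 2) ran from 19 to 24 and stayed at 2 when single libraries were left out; after Yap siRNA (21 and 2) it ran from 20 to 24 and stayed at 2, and in the direct comparison (6 and 11) from 6 to 8 and from 9 to 12. Under an adjusted p of 0.01, 1 member was lower after Yap siRNA, 1502 of all genes were higher and 1299 lower after Llgl1/2 siRNA, and 18 other pathway genes were higher in the direct comparison. The other counts stayed within 1.5 times. With the replicate block the members' counts were 24 and 2, 25 and 2, and 7 and 13; the block added Mlycd after Llgl1/2 siRNA (adjusted p = 0.029) and Acadl, Decr1, Mlycd and Ppargc1a after Yap siRNA (0.0073 to 0.040), groups whose numbers were not taken to pair the libraries. The Cpt1b to Cpt1a log2 ratio differed by 0.56 to 0.66, 0.27 to 0.38 and 0.24 to 0.34 when single libraries were left out.

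Scaling also moved calls. With median-ratio scaling 25 members were higher after Yap siRNA, since Acadl (adjusted p = 0.030), Hadhb (0.027), Decr1 (0.019) and Mlycd (0.036) passed; Decr1 (0.028) and Mlycd (0.042) also did with quantile normalization. In the direct comparison Hadha (0.028) and Hadhb (0.0086) passed with quantile normalization, and Pdk4 with quantile normalization (0.046) and median-ratio scaling (0.036).

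Sign changes were seen only in values that had not passed. With median-ratio scaling Echs1 after Yap siRNA was at 0.02, and in the direct comparison Cpt1b was at -0.06, Acadvl at -0.02, Eci2 at -0.03 and Mlycd at -0.05, or -0.01 with quantile normalization. Leaving out single libraries gave ranges of -0.08 to 0.02 for Crat, -0.12 to 0.02 for Acads and -0.04 to 0.15 for Ppara after Llgl1/2 siRNA. The ranges were -0.11 to 0.00 for Slc22a5, 0.00 to 0.09 for Crat and -0.08 to 0.06 for Echs1 after Yap siRNA. In the direct comparison they were -0.19 to 0.03 for Slc27a1, -0.06 to 0.10 for Cpt1b, -0.04 to 0.11 for Mlycd and -0.02 to 0.26 for Ppargc1a. The cause was not tested. Some calls were gained without 1 library: Mlycd after Llgl1/2 siRNA without control library 3 (adjusted p = 0.033) or Yap library 3 (0.039), and after Yap siRNA Mlycd without control library 3 (0.040) or Yap library 1 (0.044), Acadl without Yap library 3 (0.039), Hadhb without Yap library 2 (0.033) and Decr1 without control library 3 (0.035) or Yap library 2 (0.035). In the direct comparison Slc22a5 (0.032) and Ppara (0.032) passed without Llgl1/2 library 1, and Pdk4 (0.047) without Yap library 1.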

Other observations

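The balance of the flavoprotein subunits was looked at after their values were seen, so it is a description without a test. The ratio of Etfb to Etfa FPKM was 1.17 ± 0.0213 after Llgl1/2 siRNA, 2.17 ± 0.0453 after Yap siRNA and 1.35 ± 0.146 in controls (SD, n = 3). The Yap siRNA libraries ran from 2.13 to 2.22, above the highest control at 1.52, and the Llgl1/2 libraries were all under the lowest control. The same ratio for the trifunctional protein subunits, Hadha to Hadhb, was 1.03 ± 0.0163 after Llgl1/2 siRNA, 1.05 ± 0.0911 after Yap siRNA and 0.961 ± 0.101 in controls, with overlapping libraries.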
